A study of Homo sapiens with 18 samples.

Results

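SP100, SP110, SP140 and SP140L encode the speckled proteins, a small family of nuclear proteins, and lie next to each other on chromosome 2. The 4 genes were chosen by name, with no use of their measured values, and all 4 were found among the 16472 genes of the deposited table. They were SP100 (ENSG00000067066), SP110 (ENSG00000135899), SP140 (ENSG00000079263) and SP140L (ENSG00000185404). RNA was sequenced from NIKS, an established human keratinocyte line (normal cells that became immortal), cultured over lethally irradiated J2/3T3 mouse fibroblasts. The 18 libraries form 6 groups of 3 biological replicates: wild type (WT) and SP100 knockout (KO), each untreated (0 h) or after 12 or 48 h with human interferon alpha 2a at 25 ng/mL. Each genotype is represented by 1 line (Vec2 for WT and KO5 for KO in the column names), so the knockout and whatever else distinguishes these lines cannot be told apart. How the knockout was made is not given in the sources used here. No untreated library at 12 or 48 h was analysed here, so the effect of interferon and that of time in culture cannot be told apart either.

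SP100 is a constituent of PML nuclear bodies, the dot-like nuclear structures organised by the PML protein, and is made as several isoforms that take part in the restriction of DNA viruses. The speckled proteins share an N-terminal domain used for self-association, a SAND domain, which binds DNA in several of its carriers, and, in their longer isoforms, a PHD finger and a bromodomain that read histone tails. Type I interferon acts through the receptor IFNAR1/IFNAR2, the kinases JAK1 and TYK2, and the factor ISGF3, which binds interferon-stimulated response elements in promoters. SP100 and SP110 are known interferon-stimulated genes, and SP140 is known mainly from leukocytes.

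The sequences around the starts of the genes are shown first because the 3 tested members, SP100, SP110 and SP140L, all rose with interferon; SP140 was too low to be tested. RefSeq (GRCh38.p14) lists 6 start windows for the 4 genes, each from 250 bases before to 50 bases after a start. The first window of each member held a common stretch, TTTCACTTNTCTTTTCC, in which 1 position may vary, on either strand. The 120 bases before 3 of the starts follow, with that stretch in capitals. They lie at chr2:230416081-230416200 on the plus strand (SP100), chr2:230327073-230327192 on the plus strand (SP140L) and chr2:230225637-230225756 on the minus strand (SP110).
SP100: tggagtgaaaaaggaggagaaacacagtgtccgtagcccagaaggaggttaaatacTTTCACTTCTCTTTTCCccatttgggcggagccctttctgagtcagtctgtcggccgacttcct
SP140L: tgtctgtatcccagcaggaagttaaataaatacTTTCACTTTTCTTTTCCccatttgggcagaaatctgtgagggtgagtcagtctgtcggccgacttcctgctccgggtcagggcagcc
SP110: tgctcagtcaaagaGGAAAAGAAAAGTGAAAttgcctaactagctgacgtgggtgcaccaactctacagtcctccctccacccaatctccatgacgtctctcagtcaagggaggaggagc

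SP110 and SP140 are transcribed in opposite directions from starts 100 bases apart, and their windows share 199 bases. The capitals in SP110 are therefore the complement of the stretch of SP140, which spans the SP140 start itself and is shown here with 10 bases on each side.
SP140: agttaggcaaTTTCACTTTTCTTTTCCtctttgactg
The last base of the stretch lies 48 bases before the start in SP100 and 71 bases before it in SP140L. Counted from 1 at the first T, the SP100 copy differs from the SP140L copy by T9C. The SP100 and SP140L windows were 92.3% identical over 272 aligned bases, against 61.2% for SP100 and SP110. Among all 34796 different RefSeq windows of this length, 4 (0.0115%) held the stretch, and those were the 4 windows of the members, at 3 places in the genome. The nearest match in the second window of SP110 differed at 1 of the 16 fixed letters. The stretch was found by comparing these windows, so its presence in all 4 is a description. The core of the interferon-stimulated response element is GAAA followed by any 2 bases and GAAA again. Searched on both strands, it was in 3.57% of all windows and in none of the 6 of the members. The complement of the stretch, as printed for SP110, ends in AAAAGTGAAA, which differs from that core in its first letter alone. The SP140 and SP140L copies carry the same letters, and the SP100 copy differs from the core in its second letter too. Near matches were not counted over all windows. The gamma-activated site TTCNNNGAA was in 7.67% of all windows and, of the members, in the second window of SP110 alone. A match or its lack says only that these letters are or are not there.

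SP100, the targeted gene, kept a measurable RNA level in the KO line at every time, and that RNA rose with interferon. Values are RPKM (reads scaled to gene length and to library size). The untreated WT libraries held 30.1, 31.9 and 27.9 RPKM, those at 12 h 156, 172 and 151 RPKM, and those at 48 h 127, 124 and 131 RPKM. In KO the libraries held 16.0, 14.2 and 15.2 RPKM untreated, 93.2, 86.5 and 87.5 RPKM at 12 h, and 59.5, 57.4 and 62.4 RPKM at 48 h. All treated libraries were above all untreated ones of their genotype, and at each time all KO libraries were below all WT libraries. At 12 h 18.5% (WT) and 18.4% (KO) of all genes tested were likewise all higher than untreated. At 48 h the shares were 15.8% (WT) and 12.8% (KO). The KO libraries were likewise all lower than WT in 8.85% of all genes tested when untreated, 9.77% at 12 h and 9.29% at 48 h. The gene-level RPKM values of SP100 do not separate its isoforms, and they do not measure protein. In such bulk samples, fewer expressing cells and less RNA per cell cannot be told apart.

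The rise of SP100 at 12 h was 5.32-fold in WT and 5.89-fold in KO, as ratios of the mean RPKM. It corresponded to an increase of 129.5 RPKM in WT and of 73.9 RPKM in KO. On the log2(RPKM + 1) scale, on which all tests were run with limma, the change was 2.37 in WT and 2.48 in KO, each with an SE of 0.059 (adjusted p of 8.62e-15 and 4.24e-15). By size these changes ranked 76th and 75th of 13280 genes tested. At 48 h the level was 4.25-fold (WT) and 3.95-fold (KO) that of untreated cells, log2 changes of 2.05 and 1.91. From 12 to 48 h SP100 fell, to 79.9% of the 12 h mean in WT and 67.1% in KO, log2 changes of -0.32 and -0.57 (adjusted limma p of 0.00057 and 2.15e-06).

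The KO mean of SP100 was 50.5% of the WT mean untreated, 55.9% at 12 h and 46.9% at 48 h, log2 changes of -0.94, -0.83 and -1.08 (adjusted limma p of 4.92e-08, 3.61e-07 and 1.47e-08). The difference of the interferon response between genotypes was tested as an interaction. It was 0.11 on the log2 scale at 12 h (95% confidence interval -0.07 to 0.29, adjusted limma p of 0.945) and -0.14 at 48 h (-0.32 to 0.04, adjusted p of 0.844). The fall from 12 to 48 h differed between genotypes by -0.25 (-0.42 to -0.07), with a p of 0.00925 before and 0.579 after adjustment in limma. A p above the threshold does not show that the responses were alike, and the intervals give the differences that these data allow.

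**Figure D1:**
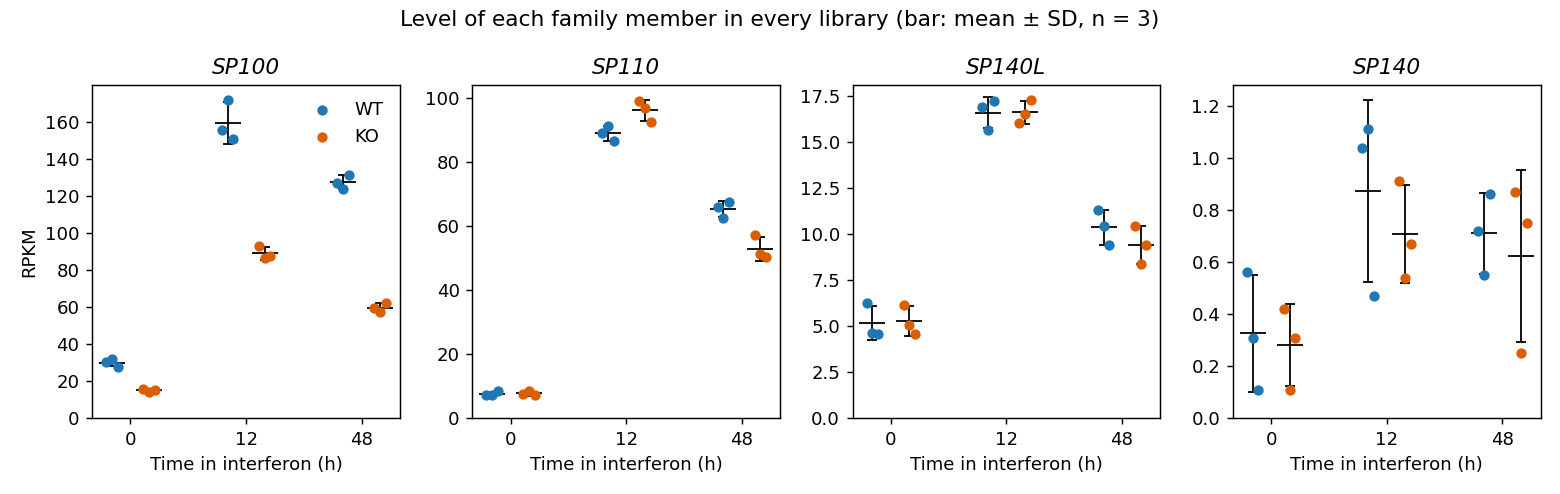
RPKM of SP100, SP110, SP140L and SP140 (vertical axis, a separate scale for each gene) in each library against time in interferon in hours, for WT and KO. Points are libraries and bars are the mean and SD of 3. SP100 is lower in KO at all 3 times (15.1 against 30.0 RPKM on average when untreated), whereas the other members start at similar levels in both genotypes.

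SP110, a nuclear body component whose loss in humans causes an immunodeficiency with hepatic veno-occlusive disease, had the largest change with interferon of the 3 tested members. Untreated WT libraries held 7.25, 7.19 and 8.39 RPKM, those at 12 h 88.8, 91.3 and 86.7 RPKM, and those at 48 h 65.8, 62.4 and 67.3 RPKM. In KO the values were 7.51, 8.59 and 7.17 RPKM untreated, 99.0, 96.7 and 92.5 RPKM at 12 h, and 57.0, 51.4 and 50.2 RPKM at 48 h. The genotypes overlapped when untreated. The KO libraries were all higher at 12 h, as in 11.2% of all genes tested. They were all lower at 48 h, as in 9.29% of all genes tested.

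SP110 rose 11.7-fold in WT and 12.4-fold in KO at 12 h, log2 changes of 3.39 and 3.47 with an SE of 0.067 (adjusted limma p of 3.45e-16 and 2.33e-16). At 48 h it was 8.57-fold and 6.82-fold above untreated cells. It fell from 12 to 48 h to 73.3% of the 12 h mean in WT and to 55.0% in KO, log2 changes of -0.44 and -0.85 (adjusted limma p of 0.000103 and 1.05e-07).

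Between genotypes, SP110 differed by 0.02 untreated (95% confidence interval -0.12 to 0.17, adjusted limma p of 0.901) and by 0.11 at 12 h (-0.03 to 0.25, adjusted p of 0.44). At 48 h it was lower in KO by a log2 change of -0.30 (SE 0.067, adjusted limma p of 0.0161), at 81.1% of the WT mean. That call was lost when only those 6 libraries were fitted (adjusted limma p of 0.061). It was also lost when WT replicate 1 or 3 or KO replicate 2 or 3 at 48 h was left out (adjusted limma p of 0.0544, 0.0687, 0.0656 and 0.0797), with changes of -0.26 to -0.29. The interaction of SP110 was 0.09 at 12 h (-0.11 to 0.29) and -0.32 at 48 h (-0.52 to -0.12), and that of its fall from 12 to 48 h was -0.41 (-0.61 to -0.21). Their unadjusted p-values in limma were 0.373, 0.00361 and 0.000535, and their adjusted p-values were 0.973, 0.562 and 0.387, so none passed the threshold.

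SP140L had the smallest rise over untreated cells of the 3 tested members, at both 12 and 48 h and in both genotypes. Its libraries held 6.24, 4.65 and 4.59 RPKM in untreated WT, 16.9, 15.6 and 17.2 RPKM at 12 h, and 11.3, 10.4 and 9.38 RPKM at 48 h. In KO they held 6.17, 5.07 and 4.57 RPKM untreated, 16.0, 16.5 and 17.3 RPKM at 12 h, and 10.4, 8.39 and 9.40 RPKM at 48 h. All treated libraries were above the untreated ones in both genotypes, and the genotypes overlapped at every time. Of all genes tested, 18.5% (WT) and 18.4% (KO) were likewise all higher at 12 h, and 15.8% and 12.8% at 48 h.

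The 12 h level of SP140L was 3.21-fold that of untreated WT cells and 3.15-fold that of untreated KO cells, log2 changes of 1.52 and 1.497 with an SE of 0.109 (adjusted limma p of 2.03e-08 and 2.21e-08). At 48 h the ratios were 2.01 and 1.79, log2 changes of 0.89 and 0.73 (adjusted limma p of 3.01e-05 and 0.000217). From 12 to 48 h it fell to 62.5% of the 12 h mean in WT and 56.7% in KO (adjusted limma p of 0.000339 and 5e-05). KO and WT differed by 0.03 (95% confidence interval -0.20 to 0.26), 0.00 (-0.23 to 0.23) and -0.13 (-0.36 to 0.11) at 0, 12 and 48 h, with adjusted limma p of 0.935, 0.997 and 0.645. Its interactions were -0.03 (-0.35 to 0.30) at 12 h and -0.16 (-0.48 to 0.17) at 48 h.

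SP140 was close to 0 in these keratinocytes and did not pass the filter of 1 RPKM in at least 3 libraries. Its libraries held 0.56, 0.31 and 0.11 RPKM in untreated WT, 1.04, 1.11 and 0.47 RPKM at 12 h, and 0.72, 0.55 and 0.86 RPKM at 48 h. In KO they held 0.42, 0.11 and 0.31 RPKM untreated, 0.91, 0.54 and 0.67 RPKM at 12 h, and 0.87, 0.25 and 0.75 RPKM at 48 h. The treated KO libraries at 12 h were all above the untreated ones, as in 18.4% of genes tested. The groups overlapped in every other comparison. Mean levels at 12 h were 2.67-fold (WT) and 2.52-fold (KO) those of untreated cells. Without the filter, the log2 change at 12 h was 0.49 in WT and 0.42 in KO, with adjusted limma p of 0.0406 and 0.0762, and the changes at 48 h had an adjusted p of 0.218 and 0.296. At such low values the change depends on the pseudocount, and with 0.1 in place of 1 it was 1.26 in WT and 1.16 in KO. Of 8 listed leukocyte markers, 1, CD14, was in the table used here. It was at 4.14 to 6.64 RPKM in untreated libraries and 1.25 to 2.56 RPKM at 12 h. Which cells the SP140 RNA came from was not tested.

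**Figure D2:**
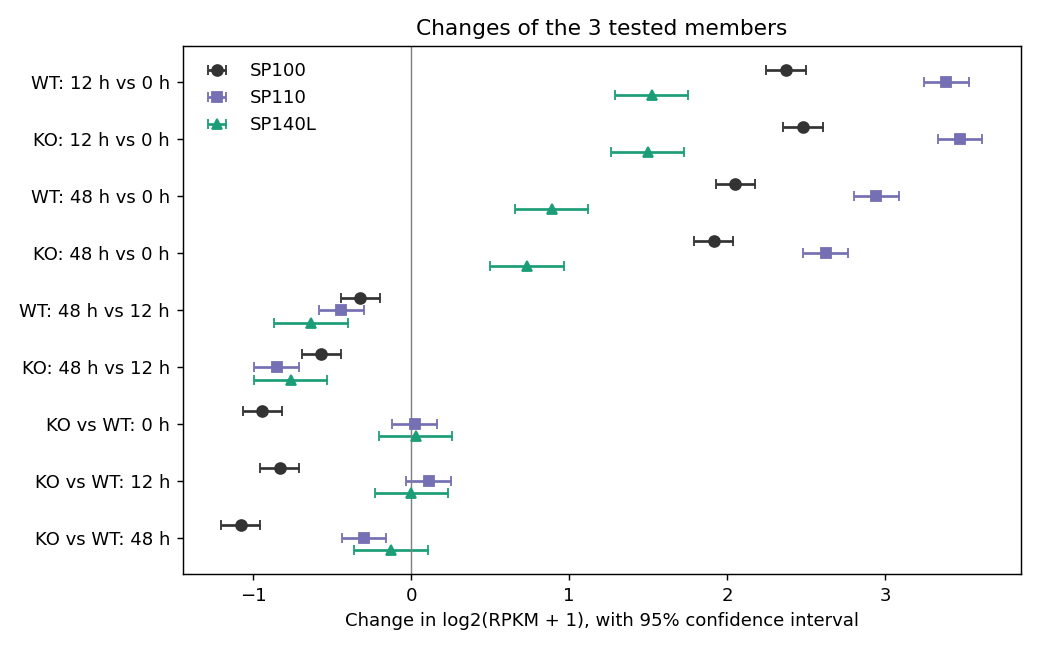
Change in log2(RPKM + 1) with its 95% confidence interval (horizontal axis) for SP100, SP110 and SP140L in 9 comparisons (vertical axis). SP110 lies furthest to the right in the comparisons with untreated cells, all 3 genes lie below 0 from 12 to 48 h, and SP100 lies near -1 in the comparisons of KO with WT.

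Against all genes tested, the counts of the 3 tested members read as follows. All 3 rose at 12 h in WT and in KO, where 15.1% and 16% of all genes were called higher. All 3 were higher at 48 h than untreated in both genotypes, where 6.52% of genes in WT and 5.9% in KO were called higher. All 3 fell from 12 to 48 h, against 11.3% of genes called lower in WT and 14% in KO. Between genotypes, 1 of 3 (SP100) was lower in KO untreated and at 12 h, where 2.07% and 2.02% of genes were, and 2 of 3 at 48 h, against 2.16%. SP100 is the gene targeted by the knockout. The second call at 48 h, that of SP110, was lost on the libraries of the comparison alone and when any of 4 single libraries was left out. These counts therefore do not show a genotype difference of the family as a whole. In the interactions at 12 and 48 h 0 of 3 were called, against 0.0753% and 0.0828% of genes. In the interaction of the fall from 12 to 48 h 0% of genes were called (904 had an unadjusted limma p under 0.05).

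Because RPKM is scaled to gene length, the levels of the members can be set in order. In all 3 WT groups the order was SP100, SP110, SP140L and SP140, and no neighbours in that order overlapped. The mean of SP100 was 3.94 times that of SP110 in untreated WT, 1.79 times at 12 h and 1.95 times at 48 h. In untreated KO the order was the same, with SP100 at 1.95 times SP110. At 12 h in KO, SP110 had the higher mean (96.1 ± 3.29 RPKM, SD, n = 3) and SP100 the next (89.1 ± 3.60 RPKM), and their libraries overlapped. At 48 h in KO, SP100 (59.8 ± 2.51 RPKM) was again above SP110 (52.9 ± 3.66 RPKM) with no overlap, at 1.13 times its mean. SP140L and SP140 kept the last places in all 6 groups.

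The ratio of 2 members within a library does not depend on the scaling of that library, apart from the pseudocount. In WT the log2 ratio of SP100 to SP110 averaged 1.85 ± 0.201 before treatment, 0.83 ± 0.064 after 12 h and 0.96 ± 0.019 after 48 h (SD, n = 3). In KO it was 0.88 ± 0.188, -0.11 ± 0.044 and 0.17 ± 0.126. The ratio to SP140L moved the other way with interferon, from 2.34 ± 0.220 to 3.19 ± 0.169 and 3.501 ± 0.151 in WT, and from 1.37 ± 0.154 to 2.35 ± 0.0998 and 2.55 ± 0.128 in KO. Both ratios were lower in all KO than in all WT libraries at each time, by 0.78 to 0.97 on the log2 scale. Each of these 6 differences reached a two-sided exact permutation p of 0.1, which is the lowest possible with 3 libraries a group, and an adjusted p of 0.2 over the 18 ratios and times compared. The ratio of SP110 to SP140L differed between genotypes by -0.0042, 0.11 and -0.17 at 0, 12 and 48 h, with exact permutation p of 1, 0.2 and 0.3 (adjusted p of 1, 0.36 and 0.45).

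**Figure D3:**
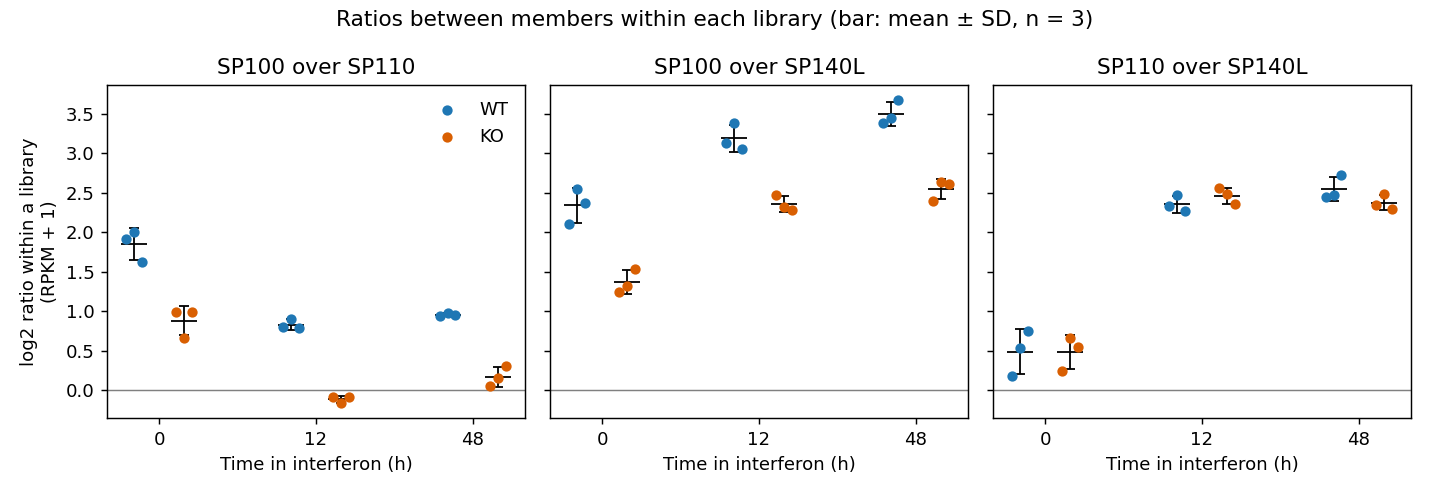
Log2 ratio of RPKM + 1 between 2 members within a library (vertical axis) against time in interferon in hours, for WT and KO; points are libraries and bars the mean and SD of 3. SP100 over SP110 drops with interferon and lies around 0 in KO at 12 h (-0.11), SP100 over SP140L climbs, and SP110 over SP140L overlaps between the genotypes when untreated.

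The genes around the family were compared between genotypes as well. Of the 10 nearest protein-coding genes, 5 on each side, 6 were in the table used here and 5 were tested: DNER, a Notch ligand, TRIP12, a ubiquitin ligase, FBXO36, an F-box protein, CAB39, a scaffold of the kinase LKB1, and ITM2C. Of these 5, 0 were called between KO and WT at 0, 12 or 48 h, against 4.89%, 3.62% and 4.19% of all genes called in either direction (limma; at an unadjusted p under 0.05 there were FBXO36 at 0 and 48 h, ITM2C at 12 and 48 h and DNER at 48 h). CAB39, the nearest tested gene beyond SP100, differed by 0.06 (95% confidence interval -0.02 to 0.15), 0.06 (-0.03 to 0.15) and 0.04 (-0.05 to 0.13). ITM2C, the next one, differed by -0.07, -0.13 and -0.16, with an adjusted limma p of 0.138 at 48 h. FBXO36 averaged 1.81 RPKM in WT and 2.30 RPKM in KO before treatment, and its 48 h difference of 0.34 had an adjusted limma p of 0.0612. With interferon at 12 h DNER, TRIP12 and CAB39 rose and FBXO36 and ITM2C fell in both genotypes. The rise of DNER, the largest of these, was 0.66 in WT and 0.70 in KO, below that of each tested family member.

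**Figure D4:**
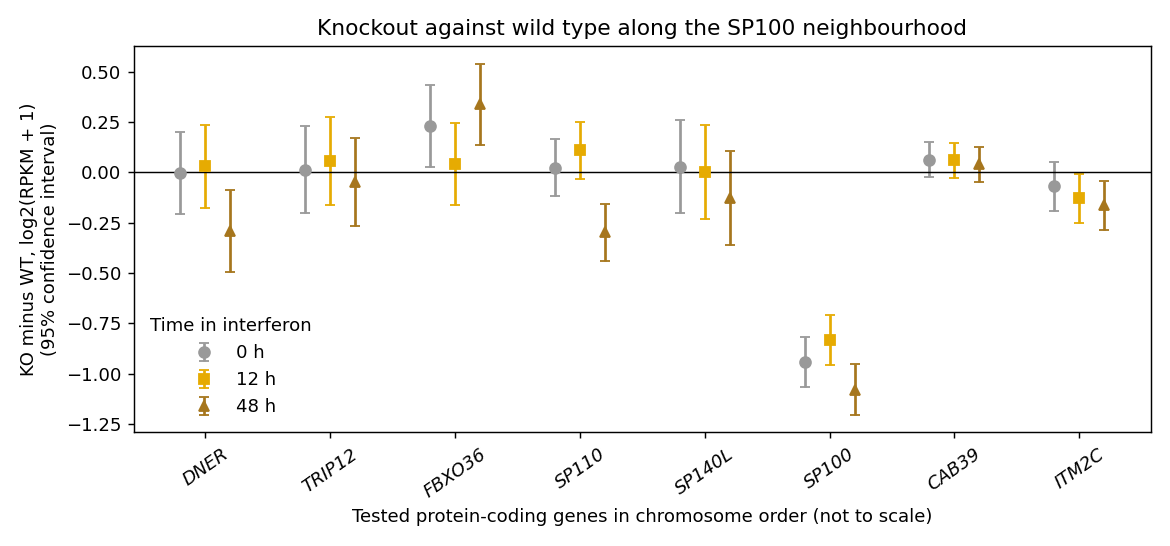
KO minus WT in log2(RPKM + 1) with 95% confidence intervals (vertical axis) for the tested protein-coding genes in their order along chromosome 2 (horizontal axis, not to scale), at 0, 12 and 48 h. SP100 stands at -0.83 to -1.08, and the other genes lie between -0.30 (SP110 at 48 h) and 0.34 (FBXO36 at 48 h).

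Among the genes that carry the interferon signal, IRF9, the DNA-binding part of ISGF3, was lower in untreated KO (4.01 ± 1.04 against 6.12 ± 0.271 RPKM, SD, n = 3, log2 change of -0.53, adjusted limma p of 0.0109). At 12 h IRF9 was at 77.3 ± 6.62 RPKM in KO and 72.1 ± 1.10 RPKM in WT, and it was not called between the genotypes at 12 or 48 h. Of the 8 listed receptor and ISGF3 genes, 1 (IRF9) was called untreated and 0 at 12 h. At 48 h 1 other gene was called lower in KO. Of all genes tested, 4.89%, 3.62% and 4.19% were called in either direction at 0, 12 and 48 h. With interferon at 12 h STAT2, IRF9, IRF1 and JAK1 rose in both genotypes. The receptor chain IFNAR2 fell in both, with log2 changes of -0.50 (WT) and -0.63 (KO), and the other chain, IFNAR1, changed by -0.18 in WT (adjusted limma p of 0.0736) and by -0.21 in KO (adjusted p of 0.0341). The difference between these changes was -0.03 (adjusted limma p of 0.995).

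The family was also set beside other interferon-induced genes, drawn up as a list of the nucleus and chromatin. That heading is loose, as the list also holds the cytosolic TRIM21. Of 15 such genes, a list that includes SP100, SP110 and SP140L, all 15 rose at 12 h in both genotypes, where 15.1% (WT) and 16% (KO) of all genes were called higher. All 15 also fell from 12 to 48 h, against 11.3% (WT) and 14% (KO) of all genes called lower. The list was chosen as interferon-induced, so its rise is no independent evidence. SP110 (3.39 in WT) and SP100 (2.37) lay on either side of the list's median of 2.638 at 12 h, and SP140L (1.52) below it. The median change from 12 to 48 h was -0.533 in WT and -0.762 in KO, against 0.074 and 0.079 over all genes tested. The difference between genotypes in that change had a median of -0.153 in the list and 0 over all genes tested. It passed the test in 0 of 15 genes and in 0% of all genes. The listed genes share their libraries, so they are not independent of each other. Between genotypes at 48 h, 4 of the 15 were called lower in KO and 1 higher. Of all genes, 4.19% were called in either direction. TRIM21, a cytosolic antibody receptor, was lower in KO by a log2 change of -0.36 (adjusted limma p of 0.00262), as SP100 and SP110 were. IRF7, the master regulator of the interferon genes, was higher by 0.63 (adjusted limma p of 0.00352). At 12 h IRF7 averaged 52.2 ± 3.01 RPKM in KO and 28.4 ± 1.57 RPKM in WT (SD, n = 3).

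Of 14 listed partners of SP100 and genes of the PML bodies, 1 was called between the genotypes untreated and 0 at 12 h. CBX5, which encodes the SP100-binding heterochromatin protein HP1 alpha, was higher in untreated KO (52.5 ± 2.23 against 46.6 ± 1.03 RPKM, SD, n = 3, log2 change of 0.17, adjusted limma p of 0.0317). PML itself, the organiser of the bodies, stood at 28.9 ± 0.467 RPKM in untreated WT and rose by 1.31 in WT and 1.51 in KO at 12 h. CBX5 went the other way with interferon, by -0.37 in WT and -0.45 in KO at 12 h. DAXX, ATRX and the histone chaperone gene HIRA were not called between the genotypes at any time.

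Of 4 listed SAND domain genes outside the family, 3 were in the table used here, and 0 of these rose with interferon at either time in either genotype. Of all genes, 15.1% (WT) and 16% (KO) were called higher at 12 h, and 6.52% and 5.9% at 48 h. With shares this small, 0 of 3 does not set these genes apart. At 12 h 2 of the 3 fell in WT and 1 in KO, where 29.8% and 32.8% of all genes were called lower. DEAF1, a transcription factor, fell by 0.31 in WT and by 0.47 in KO on the log2 scale. At 48 h it was higher in KO than in WT (11.0 ± 0.817 against 7.39 ± 0.471 RPKM, SD, n = 3, log2 change of 0.51, adjusted limma p of 0.00207). GMEB1 and GMEB2, which bind glucocorticoid modulatory elements, were not called between the genotypes at any time.

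The genes most like each tested member were found by Pearson correlation of log2(RPKM + 1) over the 18 libraries, which fall into 6 groups and share their library with the member. For SP110 they were IFIH1, an RNA sensor, PLSCR1, LAP3, DTX3L and SAMD9L, with r of 0.9965 to 0.9974. For SP140L they were TNFSF10, a death ligand, ERAP2, a peptide-trimming aminopeptidase, MASTL, a mitotic kinase, NAPA and BATF2, with r of 0.9797 to 0.984. For SP100, whose level also falls with the knockout, they were HERC5, the ligase of ISG15, COL17A1, a hemidesmosome collagen, GRINA, DHX58, an RNA sensor, and PDLIM1, with r of 0.968 to 0.9745. HERC5, for example, averaged 2.19, 22.4 and 15.7 RPKM in WT and 0.517, 16.7 and 10.5 RPKM in KO at 0, 12 and 48 h.

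Across the series, depth relative to the mean ranged from 0.857 to 1.23, as recovered from the lowest values of 338 genes, and the absolute number of reads is unknown, so no counting interval is given. Replicates of a group correlated across genes with r of 0.985 to 0.989. The keratinocyte label was borne out by all 8 listed markers, KRT5 and KRT14 among them, with a summed level of 18151 to 21631 RPKM. For fibroblasts, 2 of 8 markers were in the table used here (1.40 to 3.18 RPKM in sum), and for melanocytes 1 of 4, PMEL (0.37 to 1.57 RPKM).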

How the data were processed

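The authors deposited 1 table of RPKM values with 16472 Ensembl gene IDs and 18 library columns, rounded to 2 decimals. The submitters' processing notes name cutadapt, STAR 2.6.1, RSEM 1.3.0, limma 3.50.3 and build hg19, without saying what each did; annotation, gene filter and the total used for scaling are not given in the sources used here. Libraries were stranded mRNA libraries, per the labels' protocols. How reads that match several genes were assigned bears on SP140 and SP140L: 8.23% of the 50-base words in the GENCODE 29 coding transcripts of SP140 also occur in those of SP140L, and 0% of those of SP100 or SP110 occur in another member.

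From these values log2(RPKM + 1) was computed, and the 13280 genes with at least 1 RPKM in at least 3 libraries were fitted in limma 3.58.1 (R 4.3.3), with group means and moderated variances that follow a trend. Benjamini-Hochberg adjustment ran over every tested gene within each of 12 comparisons, with a threshold of 0.05. The intervals are 95% confidence intervals from that fit. The log2(RPKM + 1) scale understates changes of low genes. The model was tested on simulated data. RPKM values do not come from a count model, and none was fitted. Of the gene IDs, 15666 had a symbol in the reference table. Neighbouring genes were taken from the order of RefSeq genes; gene coordinates are not given because the builds differ, and those of the printed sequences are RefSeq's.

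The members were chosen by name and not by their values. Earlier results of these data were known when the members, lists and tests were chosen. The genes named are the 4 members, list members called between genotypes or in an interaction, otherwise up to 4 of the most abundant of each list, the 5 genes most like each tested member, and the neighbours; a few other list members are named as examples, after their values were seen. Results of some listed genes are not reported here. The common promoter stretch was found after the windows were seen. Nothing says which cultures the replicates came from, so p-values measure only the spread between these samples. The values gave no clear sign that the replicate numbers pair the libraries: deviations of same-numbered libraries correlated at -0.097 to 0.157 over 45 pairs. Such low correlations do not show that same-numbered libraries shared no culture or batch. Alternatives were a pseudocount of 0.1, no filter, a mean of at least 5 RPKM, median-of-ratios scaling, the libraries of the comparison alone, no variance trend, a block on the replicate number, and the omission of each library.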

Additional observations from a re-analysis of the deposited data

How the results depend on the processing

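Of the 36 changes and interactions of SP100, SP110 and SP140L, all kept their side of the threshold under a pseudocount of 0.1, no filter, a mean of at least 5 RPKM, median-of-ratios scaling, no variance trend and the replicate block. On the libraries of the comparison alone, 1 lost its call, that of SP110 in KO against WT at 48 h (-0.2986, adjusted limma p of 0.061). Leaving out single libraries moved that change between -0.3535 and -0.2632 (adjusted p of 0.0111 to 0.0797) and ended its call in 4 of 6 cases; no other call of a member was lost in this way. Changes close to 0 that were called in no fit changed sign, and the cause was not tested. SP140L in KO against WT at 12 h went from 0.002154 to -0.006468 with median-of-ratios scaling and lay between -0.0375 and 0.02837 when single libraries were left out. Under the same omissions SP110 in untreated KO against WT lay between -0.04338 and 0.08788, SP140L in that comparison between -0.07268 and 0.1499, and the interaction of SP140L at 12 h between -0.1477 and 0.07483. With the replicate block, which the deviations of the libraries do not call for, SP110 in KO against WT at 48 h kept its call (-0.2986, adjusted limma p of 0.0323). For SP140 a pseudocount of 0.1 moved the changes at 12 and 48 h to 1.263 and 1.057 in WT and to 1.158 and 0.8961 in KO. The number of genes called over the whole table moved by over 1.5 times in fits on the libraries of the comparison alone: from 1770 to 945 (48 h against untreated in KO), 650 to 306, 481 to 213 and 556 to 250 (KO against WT at 0, 12 and 48 h), 10 to 6 and 11 to 3 (interactions at 12 and 48 h) and 0 to 1 (interaction of the fall, also 1 without a variance trend). Single libraries did so too. Without KO replicate 1 at 0 h, 1159 genes were called at 48 h in KO, 402 between the untreated genotypes and 6 in the 12 h interaction. The untreated genotypes gave 390, 418 and 397 genes without WT replicates 2 or 3 or KO replicate 2, KO against WT at 12 h gave 311 and 315 without WT or KO replicate 1, the 12 h interaction gave 6 without KO replicate 2 at 0 h or KO replicate 3 at 12 h, and the 48 h interaction gave 7 without WT replicate 2 at 48 h.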
